A study of Bos taurus with 14 samples.

Results

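IL1R2 (ENSBTAG00000006343), TYRO3 (ENSBTAG00000001694) and OTULINL (ENSBTAG00000000672) are 3 of the 27607 Ensembl genes counted in the livers of newborn heifer calves. They were selected on their fold change and p-value between the maternal diets in these same calves, so the diet difference of each is given here as a description with no test. The calves were females sired by a single bull and born to crossbred Angus-based heifers. These dams were fed a basal diet (CON) or that diet with a vitamin and mineral premix (VTM). The premix was given at 113 g per heifer and day from 60 days before breeding until calving. Both groups received colostrum replacer and milk replacer, and the liver was taken at 30 h from 7 calves of each diet. The study analysed 6 of each, leaving out CON calf 19 and VTM calf 10 for low mapping rates, and the counts of all 14 libraries are described.

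The cytokine IL-1 drives fever, acute phase protein synthesis and leukocyte recruitment through the receptor IL1R1 and its partner IL1RAP. IL1R2 binds the same cytokine but lacks the intracellular signalling domain, so it acts as a decoy, and it is best known from neutrophils, monocytes and macrophages, where glucocorticoids induce it. TYRO3 is, with AXL and MERTK, one of the TAM receptor tyrosine kinases, which bind the vitamin K-dependent proteins GAS6 and PROS1 on dying cells and restrain cytokine signalling in the cells that clear them. OTULINL is a paralog of OTULIN, the enzyme that removes linear ubiquitin chains from the TNF receptor complex. OTULINL lacks the catalytic residues of OTULIN and sits at the endoplasmic reticulum, and a damping role in inflammation is not established for it. In the RefSeq gene table of assembly ARS-UCD2.0, the nearest protein-coding neighbours are IL1R1 after IL1R2 and OTULIN before OTULINL, while TYRO3 lies between RPAP1 and MGA.

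The 3 genes did not share a direction. Over the 12 calves of the study, IL1R2 was higher in the VTM group and TYRO3 and OTULINL were lower. The VTM mean of IL1R2 was 40.5 ± 16.6 CPM against 19.7 ± 4.47 CPM in CON (SD, n = 6 each). For TYRO3 the VTM mean was 1.91 ± 1.04 CPM against 4.44 ± 2.92 CPM in CON, and for OTULINL 5.39 ± 1.77 against 8.21 ± 1.93 CPM (SD, n = 6 each). CPM are counts scaled to a common library size with TMM factors, and they are compared between calves and not between genes, since they are not corrected for gene length. In whole liver, fewer cells that express a gene and less RNA per cell cannot be told apart.

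**Figure D1:**
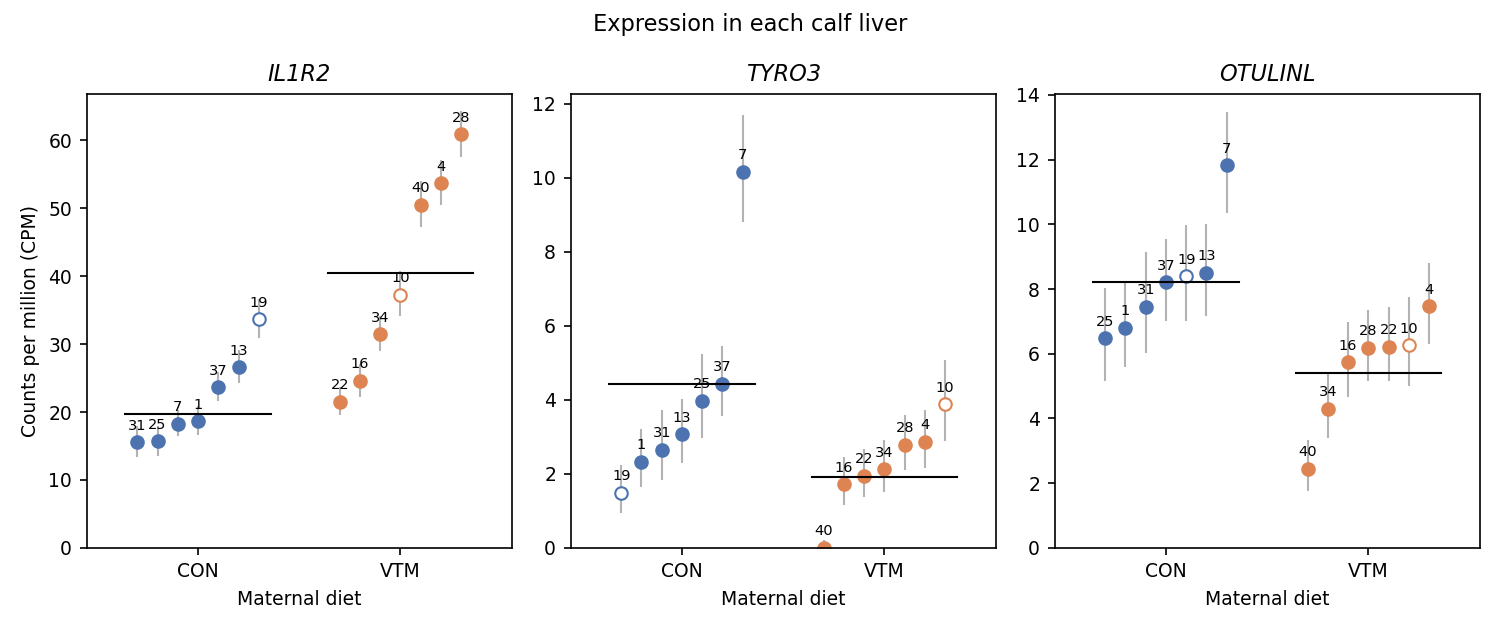
Expression of IL1R2, TYRO3 and OTULINL in CPM (y axis, a separate scale for each gene) in the liver of each calf, by maternal diet, with the calf's number beside each point. Filled points are the 12 calves of the study, open points CON calf 19 and VTM calf 10, grey lines 95% Poisson intervals that cover counting error alone, and black lines the mean of the 6 filled points; 4 VTM calves of the study lie above every filled CON point in IL1R2, and CON calf 7 stands at 10.2 CPM in TYRO3.

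IL1R2, the decoy receptor, was the most highly counted of the 3, with 194 to 475 reads in the CON calves and 416 to 1249 in the VTM calves of the study. The CON calves were at 15.6 CPM (calf 31), 15.7 (calf 25), 18.3 (calf 7), 18.6 (calf 1), 23.6 (calf 37) and 26.6 CPM (calf 13). The VTM calves were at 21.5 CPM (calf 22), 24.6 (calf 16), 31.5 (calf 34), 50.5 (calf 40), 53.7 (calf 4) and 60.9 CPM (calf 28). VTM calves 22 and 16 overlapped with CON calves 37 and 13, the other 4 VTM calves were above every CON calf, and all 6 were above the CON median of 18.5 CPM. The log2 fold change was 1.03 (standard error 0.26), a 2.04-fold higher level in VTM.

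The spread of IL1R2 was wider in VTM, with a coefficient of variation of 41.1% against 22.6% in CON. Counting error alone would give 3.64% and 5.52%. Without VTM calf 28, the highest calf, the log2 fold change was 0.88, and the highest value with 1 calf left out was 1.16, without VTM calf 22. CON calf 19, left out by the study, was at 33.7 CPM, above the other 6 CON calves and above 3 VTM calves. VTM calf 10 was at 37.3 CPM, in the middle of the VTM group. With all 14 calves in the fit IL1R2 differed by 0.88 on the log2 scale (standard error 0.25), and 4 of 7 VTM calves were above every CON calf.

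TYRO3, the TAM receptor, was a low-count gene at the 20.3rd percentile of mean log2 CPM among the 13307 genes tested. The CON calves of the study were at 2.33 CPM (calf 1), 2.65 (calf 31), 3.07 (calf 13), 3.98 (calf 25), 4.43 (calf 37) and 10.2 CPM (calf 7). The VTM calves were at 0 CPM (calf 40), 1.71 (calf 16), 1.95 (calf 22), 2.12 (calf 34), 2.78 (calf 28) and 2.87 CPM (calf 4). The groups overlapped in VTM calves 28 and 4 and CON calves 1 and 31, and all 6 VTM calves were below the CON median of 3.52 CPM. At its extremes the gene had 196 reads in CON calf 7 and none in VTM calf 40, and between 29 and 89 in the other 10 calves.

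The log2 fold change of TYRO3 over the 12 calves was -1.22 (standard error 0.64). It was -0.80 without CON calf 7 and -0.96 without VTM calf 40, and without both it was -0.54 (standard error 0.28). This pair was left out after the data were seen. CON calf 7 was the highest calf and VTM calf 40 the lowest in both TYRO3 and OTULINL, so that leaving them out had to bring these 2 differences nearer to 0, and the values without them give the size of that move and are no test of the difference.

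The 0 in VTM calf 40 belonged to a library with many zeros. It had 15395 genes at 0 counts and 318 with 1 to 9 counts, against 10941 to 13397 at 0 and 1265 to 3349 with 1 to 9 in the other 13 libraries. Among the 1775 tested genes whose mean count over the other calves lay within 1.5-fold of that of TYRO3, 23.9% were at 0 in VTM calf 40. The next highest share was 6.01% in CON calf 31, followed by 1.56% in CON calf 19 and 1.16% in CON calf 25, and no such gene was at 0 in any of the other 10 libraries. A count of 0 in this library allows up to 3 reads, or 0.179 CPM, for counting error only. Whether low counts were lost from this library before deposit was not tested, and if they were, a 0 could stand for more reads than that. The part of this library in the TYRO3 value was not tested. CON calf 7, the high calf, had 10941 genes at 0, the fewest of all libraries.

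**Figure D2:**
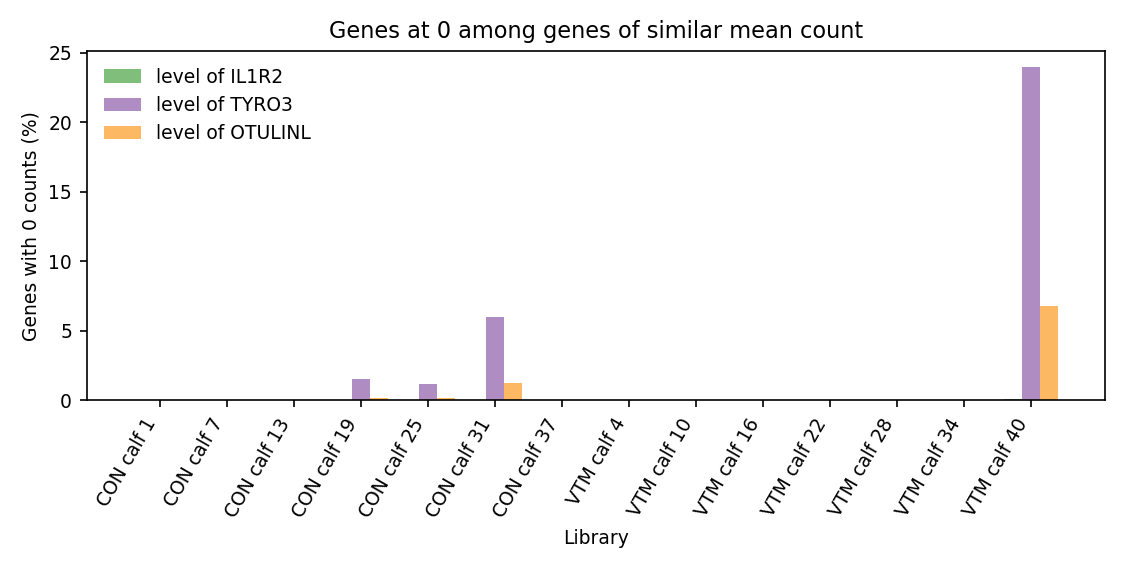
Share of genes with 0 counts in each library (y axis, percent; x axis, the 14 calves) among tested genes whose mean count in the other calves of the study was within 1.5-fold of that of IL1R2, TYRO3 or OTULINL. At the level of TYRO3, VTM calf 40 stands at 23.9% and CON calf 31 at 6.01%, and at the level of IL1R2 no bar exceeds 0.078%.

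The 2 calves that the study left out had no part in choosing TYRO3, and they ran the other way. CON calf 19 was at 1.49 CPM with 23 reads, below 5 of the 6 VTM calves of the study, and VTM calf 10 at 3.88 CPM with 52 reads, above all of them. Their 95% Poisson intervals, 0.942 to 2.23 CPM and 2.90 to 5.09 CPM, did not overlap. With 1 calf a group this has no replicate check. CON calf 19 was also a library with few low counts, at 13079 genes with 0 counts and 1265 with 1 to 9. Only VTM calf 40 had fewer genes with 1 to 9 counts, and the part of this in the TYRO3 value of CON calf 19 was not tested. With all 14 calves in the fit TYRO3 stood at a log2 fold change of -0.88 (its standard error was 0.60), and with CON calf 7 and VTM calf 40 removed at -0.24 (standard error 0.31), less than its standard error. The coefficient of variation over the 12 calves was 65.7% in CON and 54.6% in VTM, where counting error gives 11.4% and 16.6%.

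OTULINL, the paralog of OTULIN, had between 41 and 228 reads in the 12 calves. The CON calves were at 6.48 CPM (calf 25), 6.80 (calf 1), 7.46 (calf 31), 8.21 (calf 37), 8.50 (calf 13) and 11.8 CPM (calf 7). The VTM calves were at 2.45 CPM (calf 40), 4.30 (calf 34), 5.73 (calf 16), 6.19 (calf 28), 6.22 (calf 22) and 7.46 CPM (calf 4). VTM calf 4 alone reached into the CON range, and the other 5 VTM calves were below every CON calf. Of these 5, calves 16, 28 and 22 lay within the counting intervals of the 2 lowest CON calves (5.16 to 8.03 CPM in calf 25 and 5.58 to 8.21 CPM in calf 1), and calves 40 and 34 below them.

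The log2 fold change of OTULINL was -0.61 (standard error 0.26), a 1.53-fold higher level in CON. It ranged from -0.72 without VTM calf 4 to -0.46 without VTM calf 40 when 1 calf was left out. Without both CON calf 7 and VTM calf 40, again the highest and the lowest calf, it was -0.34 (standard error 0.19). The calves left out by the study kept the direction, with CON calf 19 at 8.40 CPM and VTM calf 10 at 6.26 CPM, but the Poisson interval of the first began at 7.02 CPM and that of the second ended at 7.76 CPM, so the intervals overlapped. With all 14 calves in the fit it was -0.58 (standard error 0.23), and 6 of 7 VTM calves were below every CON calf. Among genes near the count of OTULINL, 6.81% were at 0 in VTM calf 40 and 1.24% in CON calf 31.

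**Figure D3:**
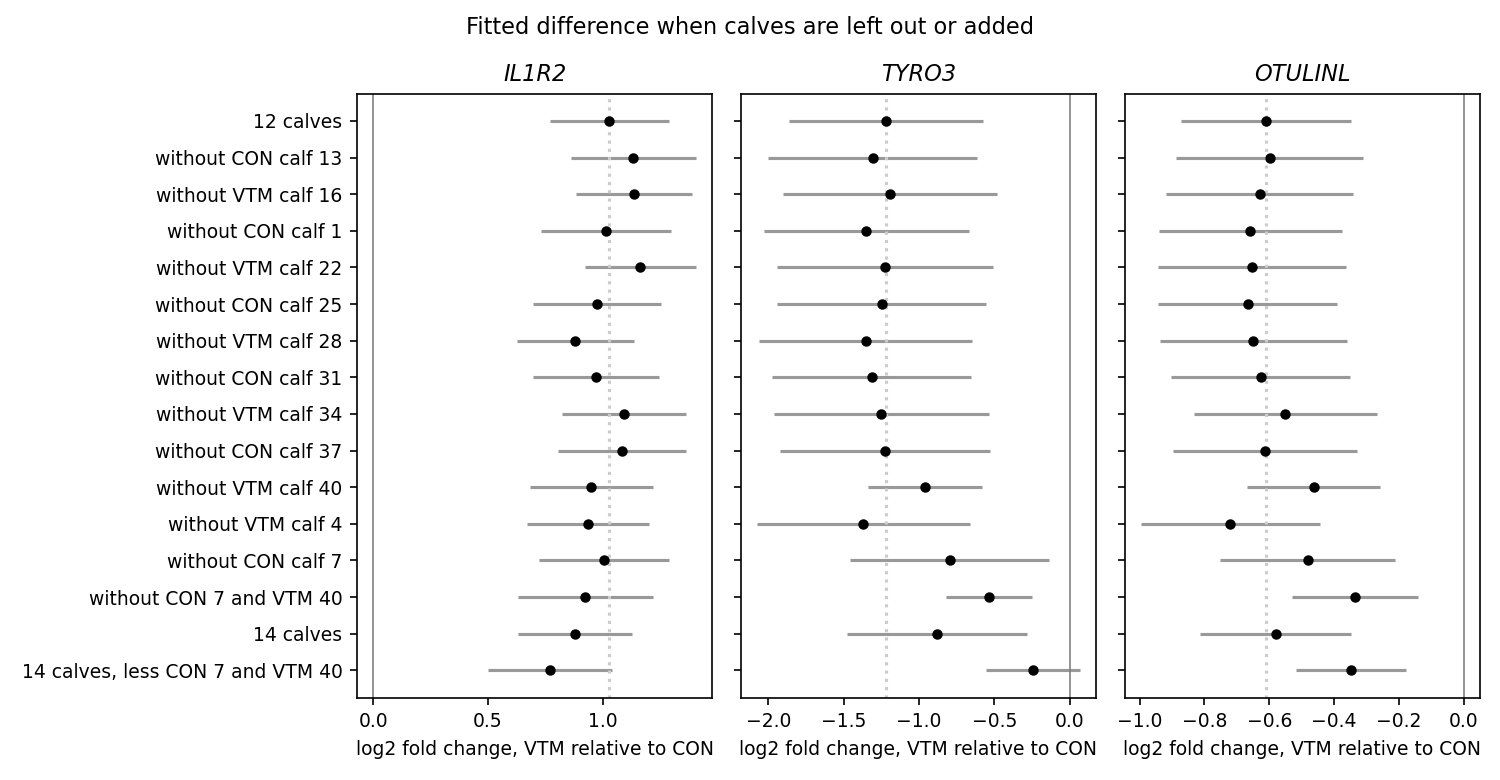
Log2 fold change of each gene in VTM relative to CON (x axis, points) with its standard error (grey lines) from fits of all genes, over the 12 calves, with each calf left out in turn, without CON calf 7 and VTM calf 40, and over all 14 calves with and without that pair (y axis). The solid line marks 0 and the dotted line the value over the 12 calves; IL1R2 stays between 0.77 and 1.16, while TYRO3 moves from -1.22 to -0.24 over the 14 calves less the pair.

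In the same fit, 494 of 13307 genes (3.71%) were past the threshold of the study, which asks for p no higher than 0.05 before adjustment and a log2 fold change of 0.5 or more in size. The share was 0.864% for genes higher in VTM and 2.85% for genes lower in VTM. IL1R2 and OTULINL were among them and TYRO3 was not, although with DESeq2 all 3 were among the 630 genes past it (4.74%, of which 1.2% higher and 3.54% lower in VTM). Over all 14 calves edgeR placed 2.07% of genes past it, 0.443% higher and 1.62% lower in VTM. Since this contrast chose the genes, nothing is read from these calls. No gene had an adjusted p at or below 0.05 with edgeR or DESeq2, where 690 and 880 genes had an unadjusted p of at most 0.05. The median log2 fold change of all tested genes was -0.02. Total counts ranged from 13382264 to 20125409 per library.

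TYRO3 and OTULINL were compared with each other within each diet. On log2 CPM their Pearson correlation was 0.82 in CON and 0.92 in VTM (n = 6 each; exact permutation p = 0.119 and 0.0667, two-sided), and Spearman's rho was 0.54 and 0.71 (exact permutation p = 0.297 and 0.136). Without CON calf 7 the correlation in CON was 0.19, and without VTM calf 40 that in VTM was 0.48. Without the 2 calves farthest from the median of TYRO3 in each group, it was -0.14 in CON and 0.12 in VTM. These calves were the farthest out in TYRO3, so leaving them out narrowed its range and left few calves. The lower values are a description and no test of the relation. Of IL1R2 with TYRO3 and with OTULINL, the 4 correlations within a diet lay between -0.19 and 0.29 (exact permutation p from 0.586 to 0.989). These moved as well when 1 calf was left out, to 0.94 for IL1R2 with TYRO3 in VTM without calf 40 and to 0.83 for IL1R2 with OTULINL in CON without calf 7.

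**Figure D4:**
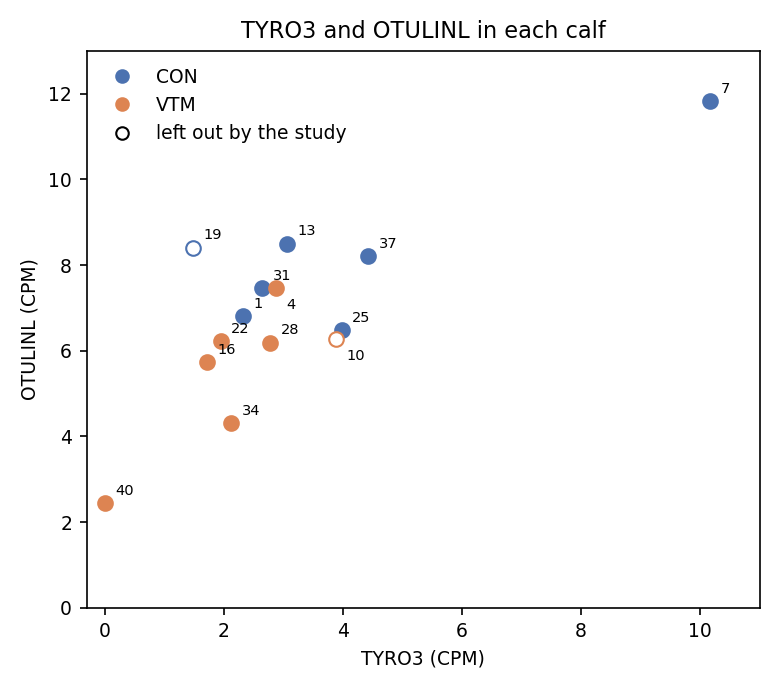
OTULINL (y axis) against TYRO3 (x axis), both in CPM, in each of the 14 calves, with the calf's number beside each point and open points for CON calf 19 and VTM calf 10. CON calf 7 (10.2 and 11.8 CPM) and VTM calf 40 (0 and 2.45 CPM) lie at opposite ends, and the other calves form 1 cloud between 1.49 and 4.43 CPM of TYRO3.

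The number of genes detected in a library, counted as genes with at least 1 read, was related to the 3 genes in the same way. In VTM its Pearson correlation with log2 CPM was 0.99 for TYRO3 (exact permutation p = 0.0417, rho 0.83 with p = 0.0583) and 0.91 for OTULINL (exact permutation p = 0.0278, rho 0.66 with p = 0.175). For IL1R2 it was -0.29 (exact permutation p = 0.961, rho 0.54 with p = 0.297). Without VTM calf 40 the 3 values were 0.67, 0.73 and 0.70, and without VTM calves 4 and 40, the farthest from the median, 0.35, 0.42 and 0.63. In CON the correlations were 0.38 for TYRO3, 0.49 for OTULINL and 0.65 for IL1R2 (exact permutation p = 0.472, 0.264 and 0.117), and that of IL1R2 turned to -0.91 without CON calves 25 and 31, the farthest from the median. Among the 12 relations of this family, the lowest Benjamini-Hochberg adjusted p was 0.25, so none passed 0.05 after correction.

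The genes that varied most like each member were taken by Pearson correlation of log2 CPM over the 12 calves among the 688 genes whose names could be paired with identifiers. These named genes are those the study listed as different between the diets or as regulators, so a shared diet difference is built into the likeness. For IL1R2 they were PLXNB1 (r = 0.91), LGR4 (0.89), TTC7A (0.88), UGP2 (0.88) and EIF2AK4 (0.88), all at a higher mean in VTM. PLXNB1 is a semaphorin receptor, LGR4 a receptor for R-spondins in Wnt signalling, UGP2 makes UDP-glucose for glycogen, and EIF2AK4 is the kinase GCN2 that senses amino acid shortage. After centring on the group means the r values of these 5 were between 0.76 and 0.86, and without CON calf 7 and VTM calf 40 between 0.88 and 0.91.

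For TYRO3 the most similar named genes were CCN2 (r = 0.98), P3H4 (0.96), ZBTB47 (0.96), HDAC7 (0.95) and FLI1 (0.95). CCN2 is a matricellular protein induced by TGF-beta and YAP, P3H4 takes part in collagen modification, HDAC7 is a class IIa histone deacetylase, and FLI1 is an ETS factor of endothelial and blood cells. Without CON calf 7 and VTM calf 40 the r values fell to between 0.50 and 0.59. For OTULINL they were MACROH2A2 (r = 0.96), CLIP3 (0.95), CCN2 (0.94), NTS (0.94) and FLI1 (0.93), and without the pair of calves between 0.73 and 0.84. CCN2 and FLI1 were thus on the lists of both genes, which share the high CON calf 7 and the low VTM calf 40.

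Within each diet, the share of the 13306 other tested genes that had an absolute correlation of at least 0.9 with TYRO3 over 6 calves was 20.5% in VTM and 0.812% in CON. For OTULINL it was 8.76% and 1.63%, and for IL1R2 1.89% and 2.11%. The median over all genes was 2.64% in VTM and 3.38% in CON, and the 90th percentile was 16.4% and 18.2%. Without VTM calf 40, on 5 calves, the VTM share was 8.31% for TYRO3, 2.98% for OTULINL and 8.03% for IL1R2. There the median gene had 4.14% and the 90th percentile was 8.85%. Without CON calf 7 the CON share was 0.947% for TYRO3, 2.68% for OTULINL and 8.16% for IL1R2. There the median gene had 7.5% and the 90th percentile was 25.5%. These are descriptions over few calves, and no test was made of them.

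For the pathways around the 3 genes, lists were drawn up of 127 genes of IL-1 signalling, the TAM receptors, linear ubiquitin, NF-κB targets, acute phase proteins and the glucocorticoid response. Names could be paired with identifiers for 6 of them. IL1R1, IL1RAP, IL1RN, AXL, MERTK, GAS6, PROS1 and OTULIN were not among these and are not analysed here. The names came from the study's lists of different genes and of regulators, which did not hold these genes under these names. The 6 were IL18BP, LGALS3, HAMP, HSD11B2, TTR and NFKB2, which could be named because the study had listed them from these calves, so that they say nothing of the pathways as a whole. With edgeR, 4 of the 6 were past the threshold, all lower in VTM, where 2.85% of all tested genes were past it and lower. For genes named in this way, that share is no fair comparison.

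IL18BP, the soluble decoy that binds IL-18 as IL1R2 binds IL-1, averaged 5.08 ± 0.995 CPM in VTM against 7.27 ± 1.43 CPM in CON (SD, n = 6 each). Its log2 fold change was -0.52 (standard error 0.22). The decoys for IL-1 and IL-18 thus had opposite signs. IL18BP stayed past the threshold in 6 of the 12 fits with 1 calf left out, reaching -0.44 without CON calf 13, and was at -0.40 over all 14 calves, not past it. LGALS3, a galectin of macrophages reported to bind MERTK, averaged 3.55 ± 0.647 CPM in VTM against 5.46 ± 2.08 CPM in CON (SD, n = 6 each). Its log2 fold change was -0.62 (standard error 0.28). Without CON calf 7 it was -0.44 and over all 14 calves -0.40, not past the threshold in either.

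HAMP, the iron hormone hepcidin that IL-6 induces in hepatocytes, averaged 114 ± 42.3 CPM in VTM against 241 ± 185 CPM in CON (SD, n = 6 each). Its log2 fold change was -1.09 (standard error 0.50). Its CON calves ranged from 48.8 to 507 CPM, and without CON calf 25 it was -0.72, not past the threshold. LGALS3 and HAMP each stayed past the threshold in 4 of the 12 fits with 1 calf left out. HSD11B2, which inactivates cortisol, was a low-count gene, at 0 to 0.835 CPM in VTM and 0.295 to 2.42 CPM in CON. Its log2 fold change was -2.12 (standard error 0.81), and it was not past the threshold without CON calf 25. TTR, a plasma carrier that falls in the acute phase, and NFKB2, an NF-κB subunit, had log2 fold changes of -0.99 (standard error 0.52) and -0.17 (standard error 0.23) and were not past the threshold with edgeR, although TTR was with DESeq2. NFKB2 lies outside the rule for named genes and was added after its value was seen.

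Cell types that carry these receptors could be checked through few markers. Markers that could not be named were absent, under those names, from the study's lists of different genes and of regulators. Of 19 neutrophil markers only MPO, the granule enzyme myeloperoxidase, could be named. It was at 0 to 0.874 CPM in VTM and 0.398 to 2.57 CPM in CON. Of 15 Kupffer cell and macrophage markers only TIMD4, a receptor for phosphatidylserine on resident macrophages, could be named, at 5.95 to 11.2 CPM in VTM and 6.22 to 29.2 CPM in CON. Both had lower means in VTM, and neither was past the threshold with edgeR, while both were with DESeq2. MPO was a low-count gene, and a single marker of a list does not measure how many such cells a sample held. The part of these cells in the IL1R2 value was not tested. No marker of the lymphocyte and erythroid lists could be named. TTR was the single named hepatocyte marker, at 145 to 936 CPM in VTM and 222 to 2210 CPM in CON.

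More markers could be named for the other cells of the liver. Of 14 stellate cell and fibroblast markers 8 could be named, and 6 were past the threshold and lower in VTM (2.85% of all tested genes were), with log2 fold changes of -1.12 for COL1A1, -0.99 for COL1A2, -0.61 for COL3A1, -0.84 for DCN, -1.57 for DPT and -0.86 for VIM. LRAT, which esterifies retinol for storage in stellate cells, was past it and higher, at 0.83 (0.864% of all tested genes were). RELN, the last named marker of this list, was also higher in VTM, at 0.91 (standard error 0.47), but not past it. It averaged 65.6 CPM in VTM against 34.9 CPM in CON. Of 12 endothelial markers 3 could be named, EMCN (-0.87), ENG (-0.66) and STAB1 (-0.63), each past it and lower in VTM. Of 8 bile duct markers 4 could be named, and KRT7 (-0.92) and KRT19 (-0.64) were past it and lower in VTM. A marker could be named only if the study had listed it from these calves. These counts therefore cannot be set against the shares of all tested genes. Leaving out 1 calf ended some of these calls. STAB1 was at -0.31 without CON calf 31 and EMCN at -0.52 without CON calf 7, neither past the threshold. COL3A1 and KRT19 each stayed past it in 4 of 12 such fits, with COL3A1 at -0.46 without CON calf 7 and KRT19 at -0.54 without VTM calf 22. Over all 14 calves COL3A1 (-0.49), KRT19 (-0.49) and KRT7 (-0.59) were not past it. The summed CPM of the named endothelial markers was 241 to 292 in VTM and 290 to 650 in CON, and that of the stellate markers 1578 to 3054 and 1733 to 5604. These genes were also listed by the study from these calves. Their part in the TYRO3 and OTULINL values, which were lower in VTM as well, was not tested.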

How the data were processed

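Liver RNA of 14 calves was made into directional libraries and sequenced in read pairs. After adapter and quality filtering the authors mapped reads to ARS-UCD1.2 using STAR 2.7.5, and the deposited values are whole-number raw counts for the genes of Ensembl release 109, with no normalization or filter described. VTM calf 40 has few genes with low counts, and whether its counts were filtered before deposit is not known. Which strand column of STAR was used is not given in the sources used here, so reads of overlapping antisense genes cannot be told apart. The groups came from the sample titles, and each calf was 1 replicate. Gene names were paired with identifiers from the study's supplementary tables, used as a dictionary.

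Counts were fitted with edgeR 4.0.16 in R 4.3.3 (filterByExpr, TMM, quasi-likelihood test, diet as the only term) on the 12 calves of the study, with DESeq2 1.42.0 as an alternative. CPM in the text were scaled with TMM over all 14 libraries, and log2 CPM used a prior count of 2. Standard errors are the absolute log2 fold change divided by the square root of the quasi-likelihood F. Correlations used scipy 1.17.1, with exact permutation over all pairings. Total counts ranged from 13382264 to 20125409 per library. Poisson intervals are at 95% and cover counting error alone.

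The 3 genes and all lists were chosen with earlier results of these data known. Genes named beside the 3 were list members past the threshold, the most abundant named marker of each cell type, and the 5 genes most like each of the 3. NFKB2 and RELN were named outside this rule, and RELN was not followed through the alternatives. The planned counts over pathway lists were not made, since few of their genes could be named. Alternatives were DESeq2, other scalings and filters, all 14 calves and each calf left out. The fits were tested on simulated data.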

Additional observations from a re-analysis of the deposited data

Results flagged for a closer look

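In groups of 6 calves, 1 calf stood apart from the others by a gap of more than 0.625 of the group's range in 7 of 46 groups (23 genes in 2 diets). For independent normal values chance gives about 1 in 20. These are CPM of genes chosen from these same calves, and the same calves recur, so an excess over chance is not shown. TYRO3 was at 10.2 CPM in CON calf 7, where the next CON calf was at 4.43 CPM. EMCN, an endothelial sialomucin, was at 12.8 CPM in the same calf. LGALS3 was at 4.78 CPM and NFKB2 at 33.5 CPM in VTM calf 40, and NFKB2 at 47.4 CPM in CON calf 31. DCN was at 180 CPM and KRT19 at 42.2 CPM in VTM calf 28, the calf with the highest IL1R2.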

How the results depend on the processing

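The log2 fold changes of IL1R2, TYRO3 and OTULINL kept their sign under every alternative that gave a value and moved by less than 1 SD of the calves within a diet. TYRO3 had no value when at least 10 counts were required in every library, since VTM calf 40 had none. With 1 calf left out, IL1R2 ranged from 0.88 to 1.16, TYRO3 from -1.37 to -0.80 and OTULINL from -0.72 to -0.46. The 1 SD limit for TYRO3 was 1.37, wider than its own difference, so it is a weak criterion there. The number of genes past the threshold was 310 with library totals in place of TMM, 1003 with no filter on low counts and 275 over all 14 calves, and, chosen after the data were seen, 266 over the 14 calves less CON calf 7 and VTM calf 40. Leaving out 1 calf gave between 286 (no CON calf 31) and 1039 (no CON calf 37). NFKB2 changed sign when CON calf 31 was left out, to 0.0761, and was at -0.296 at its lowest, with VTM calf 40 left out. No paired analysis was possible because each calf has its own number and none is shared between the diets. Counts over the 6 pathway lists were not run under any alternative because few of their genes could be named. TYRO3 had at most 89 reads in 11 of the 12 calves, and counting error alone gives it a coefficient of variation of 11.4% in CON and 16.6% in VTM.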
